A study of Mus musculus with 3 samples.

Results

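H2-D1, H2-K1, B2m, Tap1, Tapbp and H2-T23 encode parts of the machinery that places peptides on the cell surface in MHC class I molecules. These 6 genes, of 18545 in the expression matrix, were described in every cell cluster and library; they were chosen by their measured CPM levels across clusters and libraries, which had been seen, so these levels are a description. Single-cell RNA-seq was done on retinas from 3 groups of 8-week-old, dark-housed mice with 1 library each. The labels give strain C57BL/6J for all 3. The WT library came from wild-type mice on the vehicle chow, and both rd10 libraries from female mice that carry the rd10 point mutation of Pde6b, which encodes a phosphodiesterase subunit of rods, and whose rods degenerate. The rd10-vehicle mice ate the same base chow, and the rd10-TMB mice ate chow with tamsulosin, metoprolol and bromocriptine. The labels give 4 pooled mice per library, while the study's methods give a smaller number for the rd10 groups, and the WT pool held both sexes.

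Because each group is 1 pooled library, no difference between groups could be tested. All intervals below are 95% intervals that cover counting error only, and each statement holds for these libraries. The WT, rd10-vehicle and rd10-TMB libraries held 4478, 5952 and 4812 cells with 18882951, 37002532 and 29192530 unique molecular identifiers (UMIs, counted molecules), and 25 barcodes occurred in more than 1 library. Xist was found in 44.0% of WT cells and in 94.6% and 91.8% of rd10-vehicle and rd10-TMB cells. The WT library thus differs from both rd10 libraries in sex make-up as well as genotype, and for MG-like cells ratios to WT cells of female origin, by Xist and Y-linked UMIs, are given too. Of the authors' 21 clusters, 17 could be named from marker lists and are written with "-like", since the deposited clusters carry numbers only. The Müller glia-like (MG-like) cluster, with 530, 2492 and 1748 cells in the WT, rd10-vehicle and rd10-TMB libraries, had 15 of 15 MG markers raised over the other clusters. Some names rest on fewer raised markers: 7 of 13 for the ON cone bipolar-like class and 6 and 9 of 13 for OFF cone bipolar-like clusters 7 and 8. Amacrine-like clusters 5 and 9 had 11 and 8 of 15. Expression is given as CPM, the UMIs of a gene per 1000000 UMIs of that cluster and library.

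MHC class I molecules show fragments of a cell's own proteins to CD8 T cells and to receptors on natural killer cells. Each consists of a heavy chain, a light chain and a peptide. The peptides are cut by the proteasome, pumped into the endoplasmic reticulum by the TAP transporter and loaded there with the help of tapasin. Transcription of these genes is kept up by a factor complex that binds paired boxes upstream of their starts and is raised by interferons and NF-κB. Retinal neurons are known for low class I expression, and blood vessels and microglia for high expression.

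H2-D1 and H2-K1 encode the classical heavy chains, H2-T23 the non-classical heavy chain Qa-1, B2m the light chain beta-2 microglobulin, Tap1 one subunit of the peptide transporter, and Tapbp tapasin. In the mouse genome (build GRCm38.p6, RefSeq), H2-D1 lies at chr17:35263094-35267497 on the plus strand, H2-K1 at chr17:33996012-34000619 on the minus strand and H2-T23 at chr17:36029977-36032701 on the minus strand. Tap1 (chr17:34187556-34197225, plus) and Tapbp (chr17:33919478-33929290, plus) lie in the same region of chromosome 17, and B2m lies apart, at chr2:122147687-122153082 on the plus strand. Psmb9, an immunoproteasome subunit gene, starts next to Tap1 and runs the other way (chr17:34182030-34187330, minus).

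The sequences before the starts of these genes were read because the heavy and light chains moved together in the glia described below. RefSeq start windows were found for 6 of 6 genes, and the 200 bases upstream of each start were searched on both strands for 3 motifs, which were chosen after the sequences had been seen. The first was TGACG followed after 20 bases by ATTGG, the spacing of the X2 and Y boxes bound by the class I factor complex. It was present in 3 of the 6 genes and in 24 of 27025 genes with a window (0.0888%). The stretches run 5′ to 3′ along the gene's strand, with the boxes in capitals. H2-K1 has 2 start windows 14 bases apart inside its annotated span, and its positions count from the upstream one. GENCODE also annotates exons of H2-D1 over all 200 bases of that gene's window, and exons of H2-T23 over 154 of its 200 bases, whereas B2m has 1 such base and the H2-K1 window used here none.
H2-D1, chr17:35262993-35263022, 101 to 72 bases before the start: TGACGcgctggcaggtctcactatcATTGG
H2-K1, chr17:34000359-34000388, 41 to 12 bases before the start: TGACGcgcagtcagctcttacccccATTGG
B2m, chr2:122147609-122147638, 78 to 49 bases before the start: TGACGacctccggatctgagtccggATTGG

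The light chain gene thus carried the same pair of boxes at the same spacing as the classical heavy chain genes on another chromosome. H2-T23, the non-classical heavy chain gene, held no such pair in its window. The second motif was the NF-κB site GGGANTCCC, held by 151 of 27025 genes (0.559%), among them both classical heavy chain genes. Its letters were shortened after longer forms of the site, which fewer genes hold, had been searched, so its share is a description of these letters alone. The third was the core AANNGAAA of interferon regulatory factor sites, or its reverse complement, which is common (5207 genes, 19.3%) and was found in H2-D1, H2-K1, B2m and H2-T23. The next 2 stretches are shown because the NF-κB site and the interferon core, in capitals, stand side by side in both classical heavy chain genes.
H2-D1, chr17:35262924-35262951, 170 to 143 bases before the start: GGGATTCCCcatctcctcagTTTCACTT
H2-K1, chr17:34000430-34000457, 110 to 83 bases before the start: GGGATTCCCcatctccacagTTTCACTT

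B2m and H2-T23 held the interferon core, in capitals, without that NF-κB site, and H2-T23 held it at 2 positions.
B2m, chr2:122147546-122147561: atgaAACTGAAAatgg
H2-T23, chr17:36032814-36032829: ctgcTTTCTCTTtcat
H2-T23, chr17:36032771-36032786: ctcaTTTCTGTTggac
None of the 3 motifs was found in the windows of Tap1 and Tapbp, which also overlap annotated exons: those of Psmb9 cover all 200 bases of the Tap1 window, and those of Gm19412 and Tapbp cover 199 and 146 bases of the Tapbp window. A match describes letters in a window and is no evidence of binding in these cells.

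MG-like cells of both rd10 libraries held more mRNA of the heavy and light chains than WT MG-like cells. H2-D1, H2-K1, B2m and H2-T23 were at least 2-fold higher in rd10-vehicle than in WT, Tapbp was higher by less, and the interval for Tap1 included no difference. The 4 genes past 2-fold compare with 4.97% of the 13871 genes measured in these cells (at least 20 UMIs over the 2 libraries), and the median log2 ratio was 1.39 over the 6 genes and -0.07 over all genes. H2-D1 stood at 56.6 CPM (48.8 to 65.3) in WT, against 195 (189.6 to 201) in rd10-vehicle and 169 (163 to 175) in rd10-TMB. The rd10-vehicle to WT log2 ratio of H2-D1 was 1.78 (1.58 to 2.005), a 3.43-fold difference. H2-K1, the other classical heavy chain, was at 139.8, 343 and 298 CPM, with a rd10-vehicle to WT log2 ratio of 1.29 (1.16 to 1.43). H2-T23 was the lowest of the heavy chains here, at 17.5, 52.4 and 47.8 CPM, and its log2 ratio was 1.56 (1.204 to 1.99). In MG-like cells all 3 heavy chains were thus lowest in WT and highest in rd10-vehicle.

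The light chain followed them. B2m was at 129.5, 364 and 342 CPM in the same order of libraries, and its rd10-vehicle to WT log2 ratio was 1.49 (1.35 to 1.63). The loading genes differed less. Tapbp was at 43.7, 58.0 and 51.3 CPM, with a log2 ratio of 0.40 (0.16 to 0.67). Tap1 was scarce, at 7.53, 11.3 and 10.4 CPM with only 25 UMIs in WT, and its log2 ratio was 0.54 (-0.01 to 1.24). Counted by intervals, 5 of the 6 genes lay above 0, against 13.7% of all measured genes. Against WT, rd10-TMB gave 4 of 6 genes past 2-fold (background 4.06%) and a median log2 ratio of 1.24. Without cells holding 2 or more UMIs of the microglia or endothelial marker lists, which left 29, 80 and 93 cells, this fell to 2 genes and a median of 0.31, and H2-T23 turned to -0.13.

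Between the rd10 libraries the differences in MG-like cells were small and mostly in 1 direction with all cells kept, though not under every alternative. The rd10-TMB to rd10-vehicle log2 ratio was -0.21 (-0.28 to -0.14) for H2-D1 and -0.20 (-0.26 to -0.15) for H2-K1. It was -0.18 (-0.30 to -0.05) for Tapbp, -0.13 for H2-T23 with an upper bound just under 0, and -0.09 (-0.14 to -0.04) for B2m. The interval for Tap1 (-0.11, -0.40 to 0.17) included 0. None of the 6 genes was 2-fold lower (background 0.961%), but 5 of 6 intervals lay below 0, where 12.3% of all measured genes did, and the median was -0.15 against -0.02 over all genes. Intervals this narrow reflect the many cells, and how far 2 libraries from like-treated mice would differ is not known here. In the 80 rd10-vehicle and 93 rd10-TMB cells with under 2 UMIs of either marker list, microglia or endothelial, the median was -0.59. B2m turned to 0.13 there. Over all alternatives H2-D1 stayed between -0.22 and -0.14, while the lowest values were -0.68 for H2-T23, -1.27 for Tap1 and -2.14 for Tapbp. Those of Tap1 and Tapbp are past 2-fold lower.

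**Figure D1:**
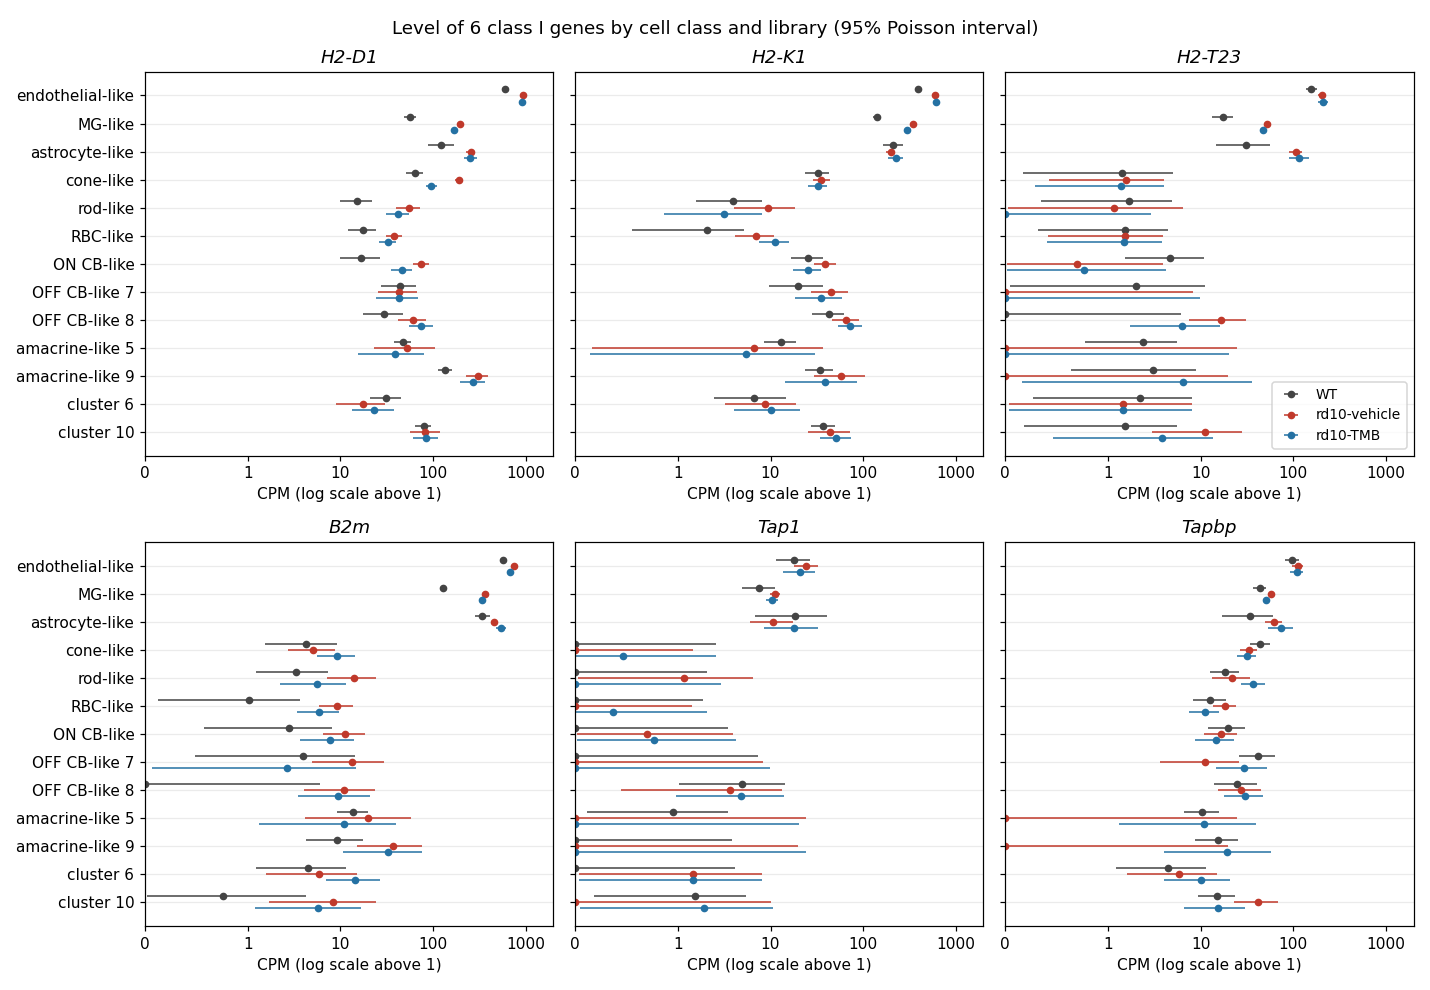
Level of each of the 6 genes (CPM, on an axis that is logarithmic above 1 and linear below, with 95% Poisson intervals) in 13 cell classes, 1 point per library: WT, rd10-vehicle and rd10-TMB; CB stands for cone bipolar. In MG-like cells H2-D1 is at 56.6 CPM in WT and at 195 and 169 CPM in the rd10 libraries, while the endothelial-like class is high in all 3.

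More cells held the transcripts, too. With each cell thinned to 1000 UMIs, H2-D1 was found in 4.36% of WT MG-like cells (Clopper-Pearson 2.79 to 6.48), against 17.2% (15.7 to 18.8) for rd10-vehicle and 15.5% (13.8 to 17.3) for rd10-TMB. The thinning left out 3, 16 and 21 shallower cells. Without it the shares were 23.96%, 69.5% and 66.6%, at median depths of 6300, 8593.5 and 9454.5 UMIs. The thinned shares of B2m were 12.5% for WT against 29.2% and 26.6% for the rd10 libraries, and those of H2-K1 11.2% against 27.3% and 23.97%. In rod-like cells, thinned alike, B2m was found in 0.210%, 1.02% and 0.601% of cells, at unthinned median depths of 1423, 1406 and 1536 UMIs, so the glial shares lay far above that level.

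MG-like cells were also split by whether they held a UMI of Lcn2, a secreted marker of reactive glia. A cell without one may still express Lcn2, since such cells were shallower. Among MG-like cells without an Lcn2 UMI (521, 1839 and 1448 cells), H2-D1 was at 53.1, 184 and 161 CPM and B2m at 125, 348 and 334 CPM in WT, rd10-vehicle and rd10-TMB. The 653 rd10-vehicle cells with an Lcn2 UMI had 218 CPM of H2-D1 and 395 CPM of B2m. These cells were also deeper, with a median of 10153 UMIs against 8175. In WT only 9 MG-like cells had an Lcn2 UMI. Their levels, from 17 and 27 UMIs, were 174 CPM (101 to 279) for H2-D1 and 276 CPM (182 to 402) for B2m, above those of the other WT cells and near those of the rd10 libraries, at a median depth of 10475 against 6271 UMIs.

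Microglia and vessels are rich in class I mRNA, so their markers were counted in the MG-like cells. The 13 microglia markers summed to 2.41, 7.16 and 9.0 CPM in WT, rd10-vehicle and rd10-TMB; 5, 12 and 12 of them had UMIs and Tmem119 was at 0 in all 3. The 12 endothelial markers summed to 1583, 1528 and 1485 CPM, nearly all from Flt1 and Kdr, while Cdh5 and Tie1 were at or near 0. Without cells holding a UMI of any of 7 defining genes (Cldn5, Cdh5, Tie1, C1qa, C1qb, C1qc and Tyrobp), which left 526, 2415 and 1707 cells, the H2-D1 log2 ratio of rd10-vehicle over WT was 1.78 and the median of the 6 genes 1.40. Against the 245 WT MG-like cells that had an Xist UMI but none from the Y chromosome, the log2 ratios were 1.77 for H2-D1, 1.28 for H2-K1, 1.51 for B2m and 1.202 for H2-T23, the last just below the counting interval of its value over all WT cells. Tap1 went from 0.54 to 0.03 and Tapbp from 0.40 to 0.60. In the few cells left by the exclusion at 2 or more marker UMIs, the rd10-vehicle to WT ratios of H2-D1 (0.95) and H2-T23 (0.56) no longer passed 2-fold, while those of H2-K1 (1.64), B2m (2.07) and Tapbp (2.01) did.

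The rest of the class I pathway in MG-like cells was read from lists of related genes. These lists were chosen with earlier results of these data known, so their counts are a description. Other heavy chains and class I-like genes were higher as well: of 11 measured, 6 were at least 2-fold higher in rd10-vehicle than in WT and none was 2-fold lower, with a median log2 ratio of 1.13. Of all measured genes 4.97% were 2-fold higher. H2-Q4 was at 13.6, 52.8 and 43.3 CPM in WT, rd10-vehicle and rd10-TMB, a log2 ratio of 1.93 (1.53 to 2.42). H2-Q7 gave 2.02, H2-M3 1.49 and H2-T22 1.13. H2-Q6 and H2-Q10 rested on 1 WT UMI each, and reads of H2-Q6 and H2-Q7, which are near-identical copies, may be split uncertainly. Hfe, a class I-like gene of iron metabolism, was lower at -0.60 (-0.89 to -0.28), and Cd1d1, which presents lipids, was at -0.28.

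The loading genes as a whole did not follow the heavy chains. Of 9 measured genes of peptide loading none passed 2-fold, and their median rd10-vehicle to WT log2 ratio was 0.03. Tap2, the partner of Tap1, gave 0.29, Tapbpl, a tapasin relative, 0.48, and Pdia3 and Canx, general folding helpers, -0.03 and -0.13. The proteasome genes split by kind. Of the 6 immunoproteasome and PA28 genes, 2 passed 2-fold (Psmb8 at 1.22 and Psmb9 at 1.03), all 6 intervals lay above 0 and the median was 0.76, where 4.97% of all measured genes passed 2-fold and 13.7% had intervals above 0. The standard catalytic subunits Psmb5, Psmb6 and Psmb7, which Psmb8 and its relatives replace, gave 0.12, 0.11 and 0.04.

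Among 15 regulators of class I transcription, 2 were at least 2-fold higher in rd10-vehicle than in WT, against 4.97% of all measured genes. Irf1, an interferon-induced activator, was at 27.7, 97.0 and 83.9 CPM in WT, rd10-vehicle and rd10-TMB, a log2 ratio of 1.79 (1.51 to 2.12). Nlrc5, the class I transactivator, had 2, 69 and 51 UMIs, and its log2 ratio of 1.80 had a wide interval (0.46 to 5.44). Of the box-binding factors, Rfxap was at -0.34, Rfx5 at -0.27 and Nfyb at 0.30. None of 7 measured interferon receptor and kinase genes passed 2-fold (median 0.02; Ifngr2, a chain of the interferon gamma receptor, was the highest at 0.78). Of 23 interferon-stimulated genes, 13 were at least 2-fold higher and none lower, again against 4.97% of all measured genes, with a median of 1.51, led by Ifit1 (3.25) and Isg15 (3.13). Class II genes were scarce: 3 of 8 reached 20 UMIs, and Cd74, the class II invariant chain, had 0, 12 and 13 UMIs.

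Between the rd10 libraries no measured gene of these lists passed 2-fold. This is no result about the lists, since only 74 of 14464 measured genes were 2-fold higher in rd10-TMB and 139 (0.961%) 2-fold lower. The other heavy chains had a median log2 ratio of -0.13 and the immunoproteasome genes -0.12, close to the -0.15 of the 6 genes. Interferon-stimulated genes had a median of -0.00, with Ifit3 higher in rd10-TMB (0.51), as was Isg15 (0.30), and Gbp2 lower (-0.26). Calr, a chaperone of the loading complex, gave -0.36 and Irf1 -0.21. The 9 reactive glia genes, some of which the study named from these samples and which are therefore no independent evidence, had a median of -0.61, with Lcn2 at 39.8, 545 and 307 CPM in WT, rd10-vehicle and rd10-TMB.

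**Figure D2:**
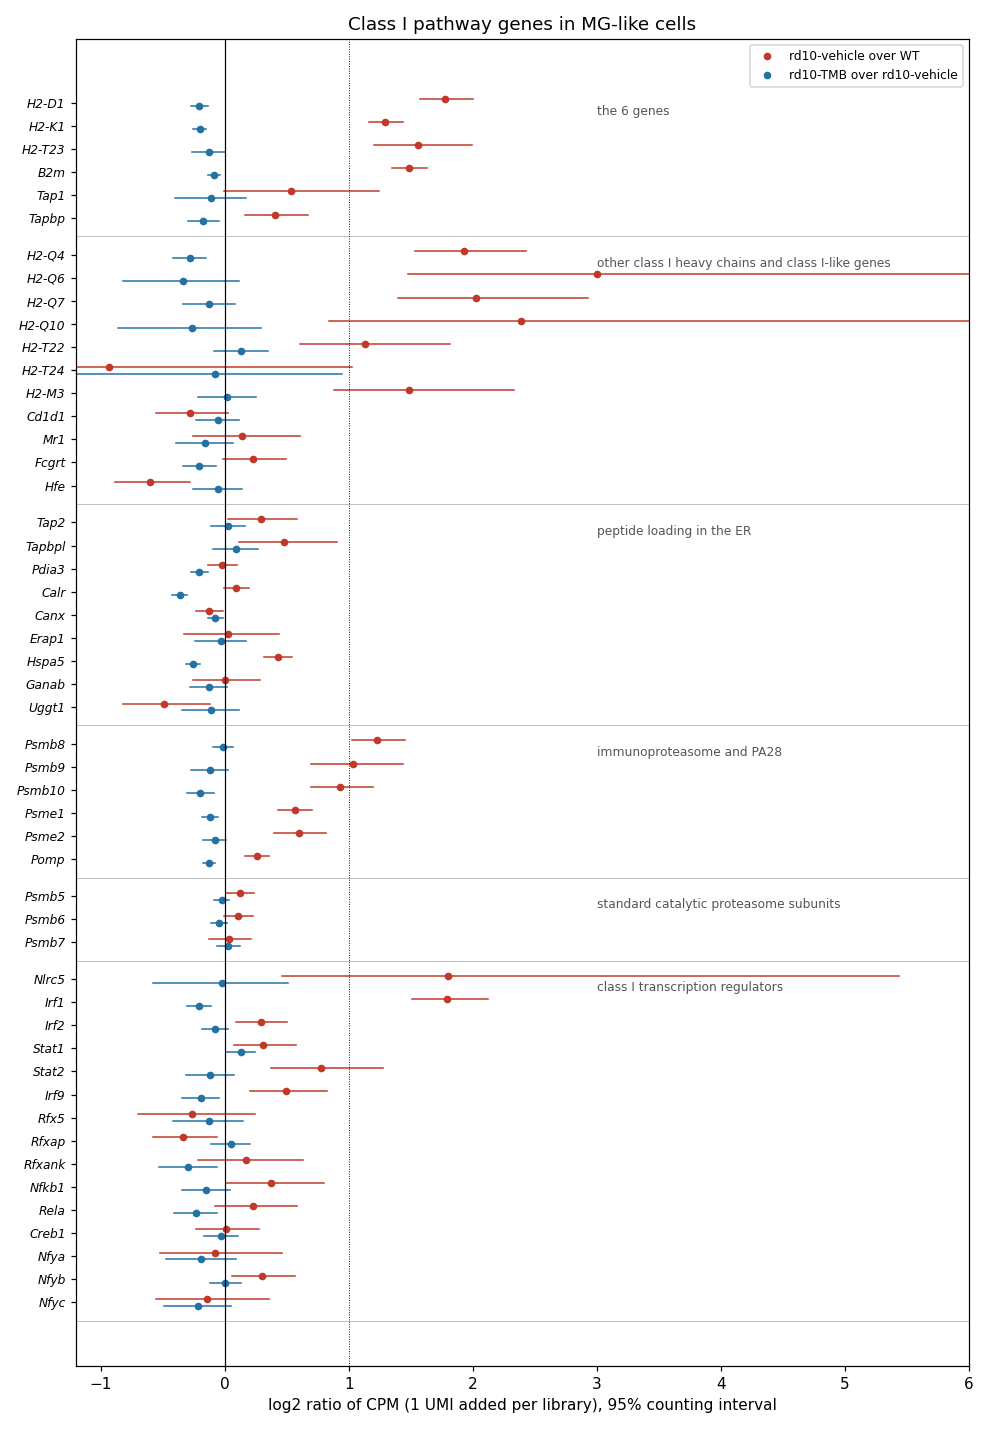
Log2 ratios of CPM in MG-like cells, with 95% counting intervals that are cut off at the edges of the plot, for the 6 genes and for all genes of 5 related lists with at least 20 UMIs over WT and rd10-vehicle; red is rd10-vehicle over WT, blue rd10-TMB over rd10-vehicle, and the dotted line marks 2-fold. In the comparison with WT, 6 of the 11 other heavy chain and class I-like genes lie right of the dotted line (median 1.13), while peptide loading genes lie around 0.03.

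Cone-like cells (278, 542 and 412 cells; 11 of 11 cone markers raised) showed a different set. Here H2-D1 was 2-fold higher in rd10-vehicle than in WT (background 2.05%), and none of the other genes with 20 or more UMIs in these cells was. It also had the lowest rd10-TMB to rd10-vehicle ratio among them. H2-D1 was at 63.2 CPM (50.8 to 77.6) in WT cones, against 189.5 (173 to 207) with vehicle and 96.2 (83.6 to 110.1) with TMB. The 3 counting intervals did not overlap, but the share of all genes with such separate intervals in these cells is not given here. The log2 ratio was 1.57 (1.26 to 1.93) for rd10-vehicle over WT and -0.97 (-1.22 to -0.74) for rd10-TMB over rd10-vehicle, a level of rd10-TMB 0.509 times that of rd10-vehicle. In MG-like cells the latter ratio was -0.21, and that the classes differ was not tested.

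The H2-D1 signal was spread over many cones. In WT, rd10-vehicle and rd10-TMB it came from 71 of 278, 256 of 542 and 139 of 412 cells, with at most 4, 9 and 6 UMIs in a cell, and 2, 57 and 16 cells held 3 or more. Thinned to 1000 UMIs, the shares of cone-like cells with H2-D1 were 6.23% (3.67 to 9.78), 14.7% (11.8 to 17.99) and 10.3% (7.51 to 13.7). The rd10-vehicle and rd10-TMB intervals of the thinned share overlapped, and the thinned level gave a log2 ratio of -0.66 in place of -0.97.

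Of the partner genes, H2-K1 and Tapbp did not rise with H2-D1 in cones. B2m, H2-T23 and Tap1 had too few UMIs for a ratio of rd10-vehicle to WT. H2-K1 stayed at 32.3, 35.5 and 32.2 CPM, a log2 ratio of 0.12 (-0.39 to 0.68) for rd10-vehicle over WT. Tapbp was at 44.2, 33.1 and 31.8 CPM, and H2-T23 had 2, 4 and 3 UMIs. B2m, without which heavy chains fold and reach the surface poorly, was scarce, with 6, 13 and 20 UMIs, or 4.21, 5.07 and 9.20 CPM. Tap1 had 0 UMIs in WT and rd10-vehicle and 1 in rd10-TMB; 0 of 278 WT cells, at a limit of 3 counts, allows a share of up to 1.08% of cells with a UMI, which does not limit the share of cells that express the gene. In rd10-vehicle the cone-like class thus held H2-D1 near its MG level (189.5 against 195 CPM), while H2-K1 (35.5 against 343 CPM) and B2m (5.07 against 364 CPM) lay far below theirs.

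The balance of the 2 chains was measured as B2m UMIs per H2-D1 UMI. MG-like cells held 2.29 (1.92 to 2.73) in WT, and 1.86 (1.795 to 1.93) and 2.02 (1.93 to 2.11) in the rd10 libraries. Endothelial-like cells held 0.948, 0.802 and 0.725. Cone-like cells held 0.0667 (0.0238 to 0.151), 0.0267 (0.0141 to 0.0462) and 0.0957 (0.0573 to 0.152), far below both. Low ratios were not particular to cones. They were 0.0588, 0.240 and 0.182 in RBC-like cells, 0.167, 0.151 and 0.167 in ON cone bipolar-like cells and 0.222, 0.255 and 0.132 in rod-like cells. The ratio was 0.0692, 0.123 and 0.119 in amacrine-like cluster 9, against 0.00962, 0.10 and 0.0682 for the unnamed cluster 10, from 1 to 9 B2m UMIs per library. In WT the cone interval overlapped those of all 5 of these classes, and in rd10-vehicle it lay below those of the RBC-like, ON cone bipolar-like, rod-like and amacrine-like classes, though the differences were not tested. Per H2-K1 UMI, B2m in rd10-vehicle was at 1.06 in MG-like, 1.5 (0.564 to 4.23) in rod-like and 1.33 (0.694 to 2.61) in RBC-like cells. It was at 0.143 in cone-like and 0.286 in ON cone bipolar-like cells. In that library the rod-like and RBC-like ratios were thus low per H2-D1 UMI but not per H2-K1 UMI, from 8 and 18 H2-K1 UMIs. The 15 MG markers in cones reached 0.319%, 1.05% and 1.02% of their MG level, and RNA of MG make-up at that share would hold 0.181, 2.05 and 1.72 CPM of H2-D1. The 13 microglia markers in cones summed to 2.11, 5.85 and 5.06 CPM. For B2m, MG RNA at that share would give 0.413, 3.82 and 3.49 CPM, so the cone level of B2m in rd10-vehicle lay within counting error of that background, and those in WT and rd10-TMB lay above it.

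**Figure D3:**
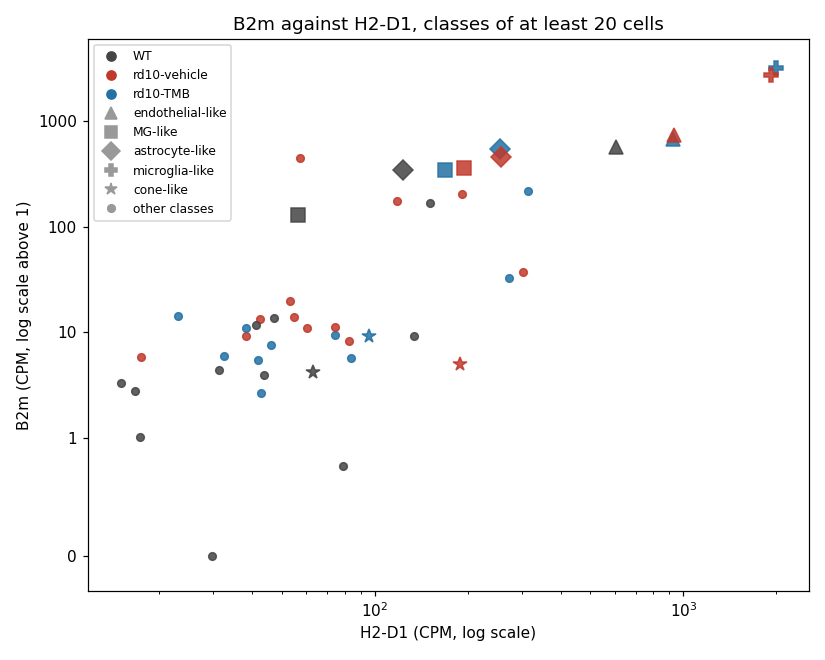
B2m against H2-D1 (both in CPM; log axes, the B2m axis linear below 1), 1 point per library for each cell class with 20 or more cells. MG-like points lie at 129.5 to 364 CPM of B2m, while cone-like points of similar H2-D1 lie far below, at 63.2 to 189.5 CPM of H2-D1 and 4.21 to 9.20 CPM of B2m.

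H2-D1 was higher in rd10-vehicle than in WT in several other neuron classes. No share of all genes past the same limits is given for these classes, so whether H2-D1 stands out in them is not known here. Rod-like cells had 15.02, 54.6 and 41.9 CPM in WT, rd10-vehicle and rd10-TMB, with a rd10-vehicle to WT log2 ratio of 1.84 (1.15 to 2.60). Rod bipolar-like (RBC-like) cells had 17.3, 38.2 and 32.6 CPM, and a ratio of 1.12 (0.57 to 1.75). ON cone bipolar-like cells had 16.8, 74.2 and 46.0 CPM; the ratio was 2.08 (1.41 to 2.95) against WT and -0.68 (-1.17 to -0.22) for rd10-TMB over rd10-vehicle. Among classes with at least 20 cells in both rd10 libraries, MG-like, cone-like and ON cone bipolar-like cells were those in which the H2-D1 interval for rd10-TMB over rd10-vehicle lay below 0. Lens-like cells, with 18 and 19 cells, had 61 and 5 UMIs of H2-D1, or 126 and 49.6 CPM. Amacrine-like cluster 9, with 295 cells in WT and 62 and 48 in the rd10 libraries, had 134, 303 and 273 CPM, a ratio of 1.19 (0.70 to 1.64).

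Neuron classes other than these varied. OFF cone bipolar-like cluster 7 held H2-D1 at 43.7, 42.5 and 42.7 CPM, and the unnamed cluster 10 held it at 79.1, 82.8 and 83.9 CPM. OFF cone bipolar-like cluster 8 was at 29.7, 60.3 and 74.4 CPM (ratio 0.99, 0.15 to 1.94). That ratio turned to -0.35 without cells holding 2 or more UMIs of the microglia or endothelial list. The unnamed cluster 6 was at 31.2, 17.5 and 23.04 CPM. Amacrine-like cluster 5, with 461, 43 and 35 cells, was at 47.1, 53.0 and 38.4 CPM of H2-D1, the rd10 values from 8 and 7 UMIs. Retinal ganglion-like (41.1 CPM, 37 cells) and horizontal-like cells (57.8 CPM, 18 cells) are given for WT only, since each rd10 library held 6 or fewer of them. B2m was at 13.9 CPM or less in every library of the rod-like, RBC-like, ON and OFF cone bipolar-like cells, but not level between libraries. In RBC-like cells it was at 1.02 CPM (0.12 to 3.68) in WT, from 2 UMIs, against 9.18 (5.88 to 13.7) with vehicle and 5.93 with TMB, a rd10-vehicle to WT log2 ratio of 2.65 (1.16 to 6.30). Rod-like cells had 3.34, 13.9 and 5.54 CPM of B2m and amacrine-like cluster 9 had 9.27, 37.2 and 32.5 CPM, both from under 20 UMIs over WT and rd10-vehicle. MG RNA at the share of MG markers would give 3.204 CPM of H2-D1 and 5.97 CPM of B2m in rd10-vehicle rod-like cells, against the 54.6 and 13.9 CPM measured. In RBC-like cells it would give 0.326, 2.94 and 2.01 CPM of B2m in WT, rd10-vehicle and rd10-TMB.

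**Figure D4:**
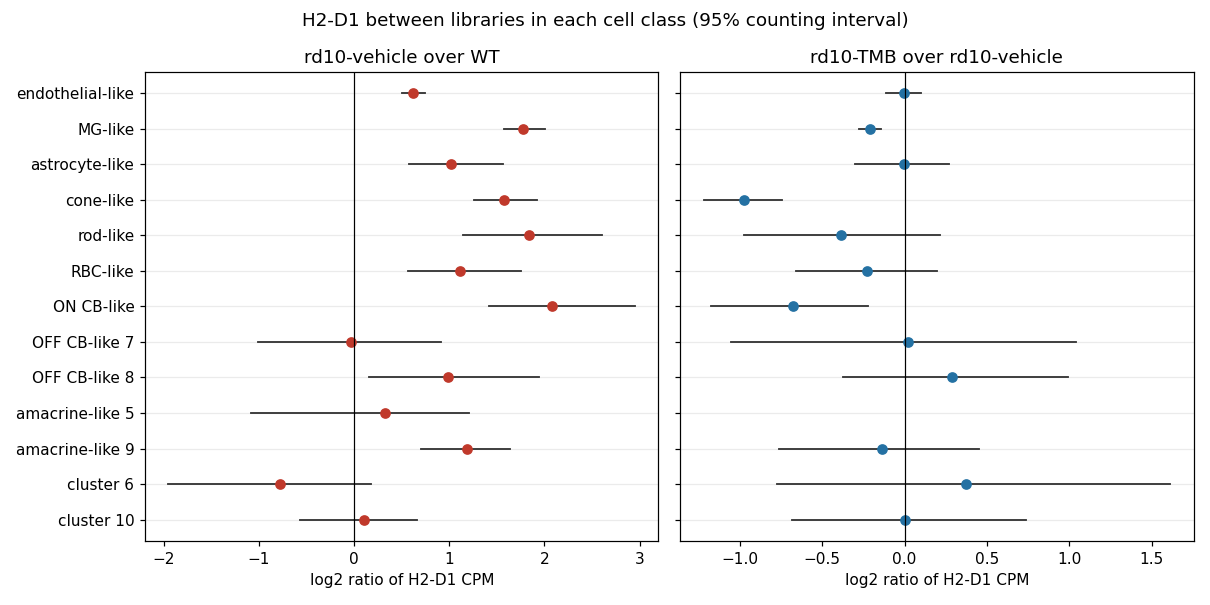
Log2 ratio of H2-D1 CPM by cell class with 95% counting intervals, rd10-vehicle over WT at the left and rd10-TMB over rd10-vehicle at the right, on separate scales; classes with fewer than 20 cells in either library (lens-like cells among them) or fewer than 20 UMIs of H2-D1 over the 2 libraries have no point. Against WT the ON cone bipolar-like class is at 2.08, rods at 1.84, MG at 1.78 and cones at 1.57, and between the rd10 libraries cones stand lowest of the plotted classes at -0.97.

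Vessel cells held high levels in WT already and differed less between libraries. In endothelial-like cells (137, 156 and 100 cells) H2-D1 was at 605, 930.0 and 926 CPM in WT, rd10-vehicle and rd10-TMB. The log2 ratio of rd10-vehicle over WT was 0.62 (0.50 to 0.74) for H2-D1 and 0.62 (0.47 to 0.77) for H2-K1, and both passed 1.5-fold (2 of 6 genes, background 8.23%). B2m was at 573, 745 and 672 CPM (0.38, 0.25 to 0.51) and H2-T23 at 158, 207 and 209.9 CPM (0.39, 0.15 to 0.64), which brought the intervals above 0 to 4 of 6 against 10.0% of all genes. Tap1 and Tapbp, at 0.42 and 0.20, had intervals that included 0. Between the rd10 libraries H2-D1 (-0.01) and H2-K1 (0.03) were flat and B2m was lower (-0.15, -0.28 to -0.02). With cells thinned to 1000 UMIs, B2m turned to 0.049.

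Microglia-like cells held the most H2-D1, H2-K1 and B2m mRNA in the rd10 libraries. WT held only 6 of these cells, so no ratio to WT is given. In rd10-vehicle (52 cells) and rd10-TMB (30 cells), H2-D1 was at 1923 and 1992 CPM, H2-K1 at 1278 and 1143 CPM, and B2m at 2716 and 3178 CPM. B2m was thus higher in rd10-TMB, with a log2 ratio of 0.23 (0.08 to 0.37), the opposite sign to MG-like cells. Astrocyte-like cells (20, 88 and 33 cells) had 123, 256 and 254 CPM of H2-D1 and 30.9, 107 and 117 CPM of H2-T23 in WT, rd10-vehicle and rd10-TMB, with rd10-vehicle to WT log2 ratios of 1.02 (0.58 to 1.56) and 1.66 (0.87 to 2.88). Their H2-K1 was at 213, 199 and 225 CPM and did not differ beyond counting error, unlike that of MG-like cells.

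Only classes with at least 20 cells in a library were ordered by level, which leaves out the microglia-like and RPE-like cells of WT. Among the rest, the endothelial-like class was first in WT for H2-D1, H2-K1, B2m, Tapbp and H2-T23, and its interval stood apart from the next class for H2-D1, H2-K1, B2m and H2-T23. For Tap1 in WT, astrocyte-like (18.5 CPM) and endothelial-like cells (17.9 CPM) could not be ordered. In both rd10 libraries the microglia-like class was first and apart for H2-D1, H2-K1, B2m and Tap1. For H2-T23 it overlapped the endothelial-like class in rd10-vehicle (273 and 207 CPM) and stood apart in rd10-TMB. For Tapbp, the unnamed cluster 18 (168 CPM), microglia-like (121 CPM) and endothelial-like cells (112 CPM) overlapped in rd10-vehicle.

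Over whole libraries, all cells together, H2-D1 was at 90.5, 223 and 179 CPM and B2m at 77.3, 305 and 266 CPM. Such a level mixes the cells' mRNA with their make-up: MG-like cells gave 17.6% of WT UMIs but 59.99% and 57.5% of those of rd10-vehicle and rd10-TMB. They gave 11.01%, 52.5% and 54.2% of H2-D1 UMIs and 34.2%, 76.9% and 77.3% of H2-K1 UMIs. Endothelial-like cells gave 49.4% of H2-D1 UMIs in WT and 20.3% and 22.3% in the rd10 libraries. With the levels of all classes weighted by the WT make-up, the rd10-vehicle to WT log2 ratio went from 1.30 to 1.04 for H2-D1, from 1.90 to 0.89 for H2-K1, from 1.98 to 1.02 for B2m and from 1.54 to 0.93 for H2-T23. For Tap1 it went from 1.42 to 0.30 and for Tapbp from 0.85 to 0.21. Over classes with at least 20 cells alone, which drops the microglia-like class among others, the weighted ratios were 0.96 for H2-D1, 0.90 for H2-K1, 0.91 for B2m, 0.80 for H2-T23, 0.40 for Tap1 and 0.19 for Tapbp.

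**Figure D5:**
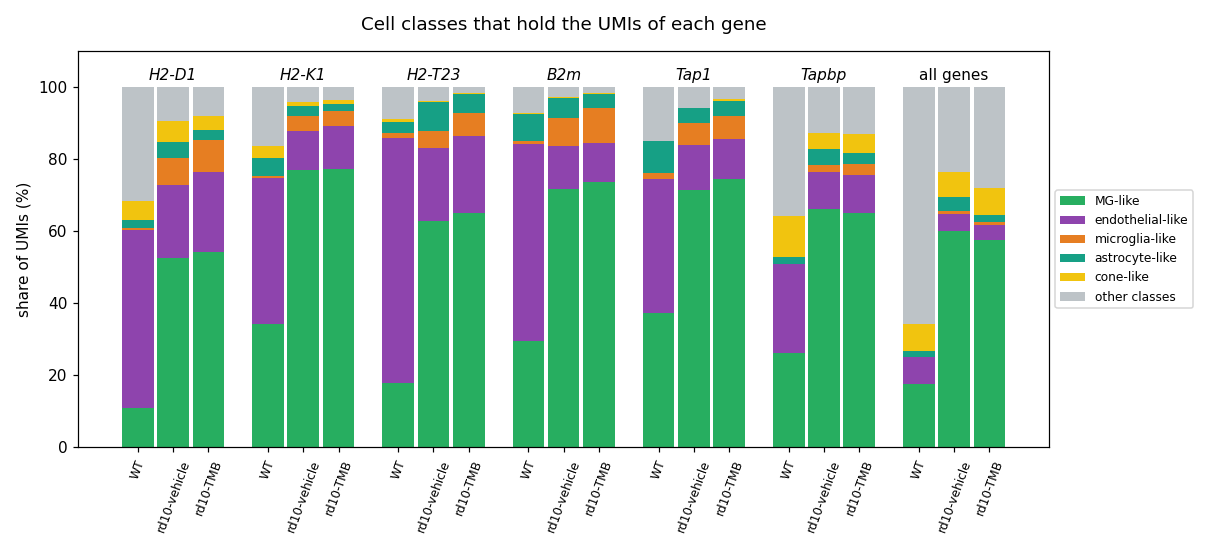
Share of each gene's UMIs (percent of the library's UMIs of that gene) that came from each cell class, by library, with the share of all UMIs (all genes) beside them. The class that gives most H2-D1 UMIs is endothelial-like in WT (49.4%) and MG-like in rd10-vehicle (52.5%) and rd10-TMB (54.2%).

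Genes whose pattern was most like that of the 6 were ranked by Pearson's r with their mean log2(CPM + 10) over 30 points, 10 classes in 3 libraries. Only genes with at least 500 UMIs and classes with at least 50 cells in each library were used, which leaves out the microglia-like class. The points share libraries, depth and cell make-up, so r is a description. The highest of 11388 genes were Psmb9 (0.967), Ifih1 (0.967), Ifitm2 (0.967), Mcl1 (0.965), Gbp2 (0.965), Tmem63a (0.964), Spry1 (0.964), Isg15 (0.963), Csrnp1 (0.963) and Ltbr (0.963). The 6 genes themselves had r from 0.867 for Tapbp to 0.970 for H2-T23, with H2-D1 at 0.928. With an offset of 1 CPM, 3 of these 10 genes were again among the first 10. Reads of the 6 genes are 3′ tags, and the last 500 bases of their transcripts shared no 91-base stretch with another gene for H2-D1, B2m, Tap1 and Tapbp, 1 of 1323 for H2-K1 and 12.9% for H2-T23.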

How the data were processed

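Dissociated retinal cells were run on 10x Chromium v3, 1 pooled library per group. Per the submitters' processing notes and the study's methods, the authors used Cell Ranger 6.0.1 and Seurat 3.2.2, with the mm10 transcriptome. Doublets were removed with Scrublet in Cumulus before deposit, cells had 500 or more detected genes, and libraries were integrated with Harmony. The deposited values are natural log values: each cell's UMIs scaled to a total of 10000, plus 1, then logged. The deposited cell table gives total counts, detected genes and cluster numbers. Whole counts were recovered from the log values (100.0% within 0.001 UMI) and summed per cluster and library to CPM. The study's own test, MAST over cells, was not used, because cells are not replicates. Levels have exact Poisson intervals and shares exact Clopper-Pearson intervals. Log2 ratios have a pseudocount of 1 UMI per library and exact conditional intervals at 95%, and need 20 UMIs over both libraries to be counted. A class was called X-like from marker lists. Clusters 6, 10, 18 and 20 stayed unnamed. In shares, cells were thinned to 1000 UMIs.

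The 6 genes and the gene lists were chosen with earlier results of these data known. Named were the 6 genes (in smaller classes only some of them), list genes that were among the 3 highest or lowest ratios of their list, past 2-fold or described by role, and the 10 genes most like the 6. Alternatives were other scalings, pseudocounts, cell filters, thinning, WT cells of female origin by Xist and Y-linked UMIs, and exclusion of cells with microglia or endothelial markers. An exclusion by 7 defining genes, and the limit of 20 cells in weighting by the WT make-up, were chosen after seeing the data. Sequences were taken from RefSeq windows on GRCm38.p6, and shared stretches from GENCODE transcripts. Python 3.11.15, numpy 2.4.6, scipy 1.17.1, pandas 2.3.3 and matplotlib 3.10.9 were used.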

Additional observations from a re-analysis of the deposited data

Results flagged for a closer look

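Tapbp in rd10-vehicle against WT went in opposite directions in different classes, with counting intervals on either side of 0. Its log2 ratio was 0.40 in MG-like cells and 1.47 (0.38 to 2.48) in the unnamed cluster 10, which had 20 UMIs in WT and 15 in rd10-vehicle. It was -1.70 (-3.66 to -0.45) in OFF cone bipolar-like cluster 7, which had 21 and 5 UMIs, but turned to 0.33 with cells thinned to 1000 UMIs, where the opposite direction is gone. The difference between classes was not tested, since each group is 1 library.

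B2m in rd10-TMB against rd10-vehicle was higher in astrocyte-like (0.25, 0.05 to 0.45) and microglia-like cells (0.23) and lower in MG-like (-0.091) and endothelial-like cells (-0.15) on the log2 scale. Both lower values turned higher under an alternative: MG-like cells to 0.13 when cells with 2 or more UMIs of the microglia or endothelial list were left out, and endothelial-like cells to 0.049 with cells thinned to 1000 UMIs. This difference between classes was not tested either.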

How the results depend on the processing

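No paired analysis was possible because each group is 1 library. Of the alternative values for the main results, 107 stayed within their limits and 6 moved. Of those for single genes, 830 stayed, 96 moved and 7 reversed. The limits were the counting interval of a ratio, or 1.5 times for a count. For a median, which has no counting interval, they were centred on it and as wide as the mean interval of its genes. Cells of any other class with 2 or more UMIs of the microglia or endothelial list were left out. This kept only 29, 80 and 93 MG-like cells, because Flt1 and Kdr are on the endothelial list. It gave medians over the 6 genes in MG-like cells of -0.59 for rd10-TMB over rd10-vehicle and 0.31 for rd10-TMB over WT. In the latter 2 genes were past 2-fold. It reversed B2m (0.13, rd10-TMB over rd10-vehicle) and H2-T23 (-0.13, rd10-TMB over WT) in MG-like cells and H2-D1 in OFF cone bipolar-like cluster 8 (-0.35, rd10-vehicle over WT). Thinning to 1000 UMIs gave -0.66 for cone H2-D1 (rd10-TMB over rd10-vehicle), and medians of 0.70 (rd10-vehicle over WT) and 0.76 (rd10-TMB over WT) in endothelial-like cells. It reversed Tapbp in OFF cone bipolar-like cluster 7 (0.33, rd10-vehicle over WT) and endothelial B2m (0.049, rd10-TMB over rd10-vehicle). Restricting WT to cells that had Xist but no Y-linked transcripts turned endothelial B2m (rd10-TMB over WT) to -0.079, and the WT make-up over classes of at least 20 cells, a limit chosen after seeing the data, turned whole-library Tapbp (rd10-TMB over rd10-vehicle) to 0.020, where the make-up over all classes gave -0.06. The cause was not tested for these. Over all alternatives the median of the 6 genes in MG-like cells, rd10-vehicle over WT, ranged from 1.24 to 1.42, but single genes ranged more widely: H2-D1 from 0.95 to 1.91, H2-T23 from 0.56 to 1.64, Tapbp from 0.33 to 2.01 and Tap1 from -0.44 to 0.82. H2-D1 and H2-T23 fell below 2-fold in the 29, 80 and 93 cells left by the first exclusion above, where 3 of the 6 genes passed. Cone H2-D1 ranged from 1.32 to 1.75 against WT and from -1.01 to -0.66 between the rd10 libraries. With 1 library per group, depth limits Tap1, H2-T23 and B2m in neurons, where most libraries held under 20 UMIs, and no value measures the spread between mice.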
